A study of Xenopus laevis with 2 samples.

Results

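The Vent genes of *Xenopus laevis* encode homeodomain transcription factors, known chiefly as repressors, that are switched on by bone morphogenetic protein (BMP) signalling on the ventral side of the embryo. In the gastrula they hold back dorsal organizer genes such as *goosecoid* and *chordin*, and they feed back on the BMP pathway that maintains them. Names in the literature overlap, since Vox, Xom, Xbr-1 and Xvent-2 denote closely related ventx2 genes, and PV.1 and Xvent-1 denote ventx1 genes. In prospective ectoderm, where BMP signalling favours epidermis over neural tissue, their transcripts are a common read of ventral BMP activity.

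Of 21495 gene probes on the array, 5 belonged to the family. Xbr-1b and LOC397948 were chosen by their ratios on the active EBF3 array, which were already known to be among the lowest, and their values on that array are therefore given as a description. The other 3 probes, xom-A, PV.1 and BF611605, were found only by a description that names a Vent gene. By RefSeq names (assembly Xenopus_laevis_v10.1), Xbr-1b is ventx2.1.S, LOC397948 (described as VENT-2) is ventx2.1.L, xom-A is ventx2.2.L, and PV.1 matches both ventx1.1.L and ventx1.1.S, the L and S copies of 1 gene in this tetraploid frog. BF611605 is an expressed sequence tag described as similar to Xvent-1 protein and has no RefSeq symbol. The probe sequences were not used here, so how far each probe also reads the other copy, or ventx2.1 against ventx2.2, is not known.

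RNA came from animal caps, pieces of prospective ectoderm cut at stage 9 from embryos injected at the one-cell stage. Active EBF3 caps carried 1 ng of mRNA for hGR-Xebf3, a fusion of the transcription factor EBF3 to the hormone-binding part of the human glucocorticoid receptor, and received 30 µM dexamethasone (DEX) for 4.5 hours, which frees the fusion to act. The hGR caps carried 0.4 ng of mRNA for the receptor part alone and received the same DEX. Untreated hGR-Xebf3 caps, kept without DEX for the same time, were the reference on both arrays. No group received Noggin, a secreted BMP inhibitor. Both DEX-treated samples were read in Cy3 and the reference in Cy5, on 1 array each and without swapped dyes. Replicate error was therefore not measured, no test was possible, and a dye bias of a single probe cannot be told apart from a response. Both DEX and the mRNA they received set the hGR caps apart from the reference. Each array was also on its own slide, and slide and group cannot be told apart either.

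After non-uniform spots were left out, 21283 probes were usable for active EBF3 caps and 21343 for hGR caps. Well above background in both channels were 10901 and 10573 of the gene probes. The median log2 ratio of Cy3 over Cy5 was -0.09 and -0.06. Among epidermal structural genes, the keratin probe krt1-2-prov had processed signals of 31169 and 25332 in the reference on the active EBF3 and hGR arrays. Signals are in the arbitrary units of the scanner software, and a spot error is that software's own error of the log ratio, which covers the pixels and the error model of 1 spot and not variation between caps.

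All 5 Vent probes were lower in active EBF3 caps than in the reference, by 3.195-fold to 54.1-fold, and all 5 ratios were above 1 in hGR caps, by 1.07-fold (xom-A, within its spot error and below 1 under median centring) to 1.81-fold. Every one was well above background in the reference on both arrays. Because the RNA is that of whole caps, fewer cells that express a Vent gene and less Vent RNA per cell cannot be told apart.

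By the signals as they are, the ventx2 probes came first in the size of the decrease. PV.1, a ventx1 probe, has only a bound there, so its place behind them is not settled. Xbr-1b had a processed signal of 1220 in active EBF3 caps and 72848 in hGR caps, against 65996 and 57544 in the reference on these arrays. The active EBF3 signal alone stood apart, at 1.85% of its own reference, and this was the lowest ratio of all 21283 usable probes (log2 ratio -5.76, spot error 0.47, 54.1-fold lower). In hGR caps the log2 ratio was 0.34 (spot error 0.17), a 1.27-fold increase.

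LOC397948, the L copy of ventx2.1, gave 1585 in active EBF3 caps and 61263 in hGR caps, against 44319 and 39144 in the reference. With active EBF3 it ranked 9 from the lowest, at a log2 ratio of -4.81 (spot error 0.40, 28.0-fold lower), and its log2 ratio was 0.65 (spot error 0.17) in hGR caps, where it was 1.57-fold higher. Both copies of ventx2.1 thus lay on the same side of the reference on each array.

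For xom-A, the ventx2.2 probe, the signal was 535 in active EBF3 caps and 12361 in hGR caps, against 12885 and 11521 in the reference. Its log2 ratio was -4.59 (spot error 0.38, 24.1-fold lower) with active EBF3, rank 13 from the lowest. In hGR caps it was 0.10, smaller than its spot error of 0.16, and with median centring in place of the intensity-dependent curve it turned to -0.15, so no direction is given for xom-A in hGR caps.

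The ventx1 probes had lower reference signals. PV.1 gave 157 in active EBF3 caps, where it was not well above background, and 2375 in hGR caps, against 1507 and 1310 in the reference. With the dim channel set to its detection floor, the processed signals put it at least 7.27-fold lower in active EBF3 caps. The log2 ratio of the signals as they are was -3.27 (spot error 0.35). That bound holds for the processed signals only, since median pixel signals with loess gave a log2 ratio of -2.62 and normexp -1.29. In hGR caps PV.1 was 1.81-fold higher (log2 0.86, spot error 0.18), the highest of the 5, and only 1.82% of usable probes had a higher ratio there.

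BF611605, the tag similar to Xvent-1, had 628 in active EBF3 caps and 2952 in hGR caps, against 2005 and 1945 in the reference. It was the least reduced member, 3.195-fold lower with active EBF3 (log2 -1.68, spot error 0.22) and rank 194 from the lowest, and 1.52-fold higher in hGR caps (log2 0.60, spot error 0.17). Its residual signal was 31.3% of the reference, the most of any member.

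**Figure D1:**
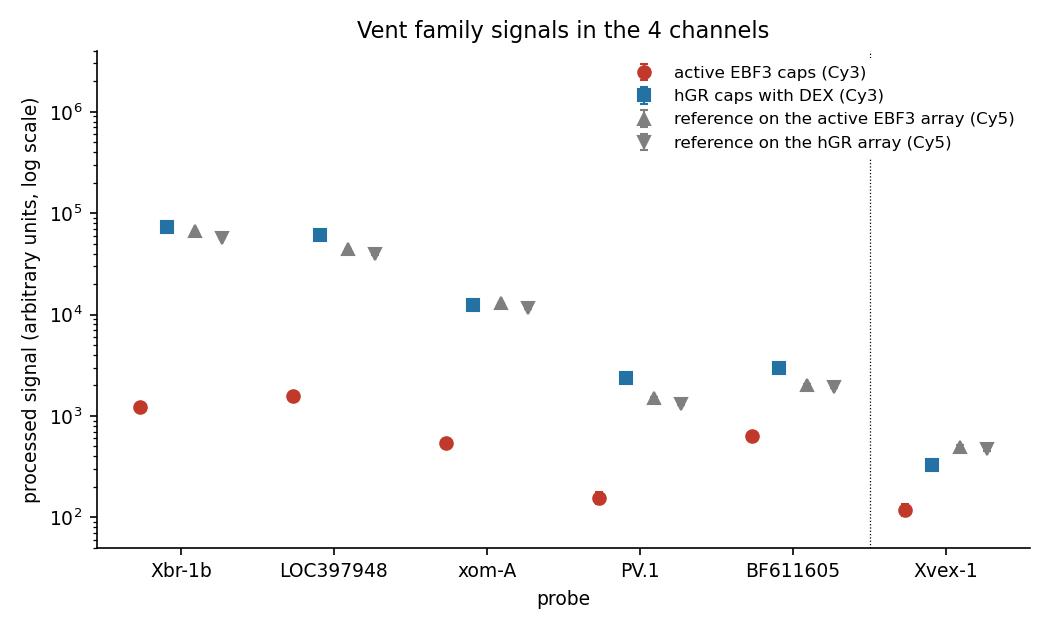
Processed signal (arbitrary units, log scale) of the 5 Vent probes and of the related Xvex-1 probe, which stands right of the dotted line, in active EBF3 caps, hGR caps with DEX and the reference on each array; bars are the software's signal error for 1 spot, mostly smaller than the symbol. For every family probe the active EBF3 symbol lies below the other 3, which lie close together, as for Xbr-1b with 1220 against 72848, 65996 and 57544.

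Counted against all probes, 5 of 5 members were at least 2-fold lower on the active EBF3 array, where 2.03% of usable probes were lower and 2.11% higher by that much, and 4 of 5 were at least 5-fold lower, against 0.512% of probes. Since this array chose 2 of the members, nothing is read from these shares. On the hGR array, which the choice did not use, 0 of 5 members were at least 2-fold higher, where 1.02% of probes were. At 1.5-fold, 3 of 5 were higher (LOC397948, PV.1 and BF611605), against 5.52% of probes, and against 4.87% of the 10422 usable probes well above background in both channels. The 1.5-fold threshold was added after seeing the data, so nothing is read from these shares either. The calls depended on the setting, since 2 of 5 passed 1.5-fold with normexp and 1 of 5, PV.1, with median centring. Before dye normalization no member passed, the highest being PV.1 at a log2 ratio of 0.02.

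The order of the members on the active EBF3 array was only partly separated by spot error. Xbr-1b and LOC397948 differed by 0.95 on the log2 scale, 1.55 times their combined spot error, and LOC397948 and xom-A by 0.22, which is 0.39 times that error. The place of PV.1 is not settled, since its active EBF3 signal gives only a bound. By the processed signals BF611605, at 3.195-fold lower, was less reduced than the bound of PV.1, at least 7.27-fold. With normexp they lay closer together, at log2 ratios of -1.01 for BF611605 and -1.29 for PV.1. On the hGR array no neighbours in the order were more than 1.095 times their combined spot error apart, so adjacent places were not separated there. The ends of that order, xom-A at 0.10 (spot error 0.16) and PV.1 at 0.86 (spot error 0.18), lay further apart than any neighbours.

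**Figure D2:**
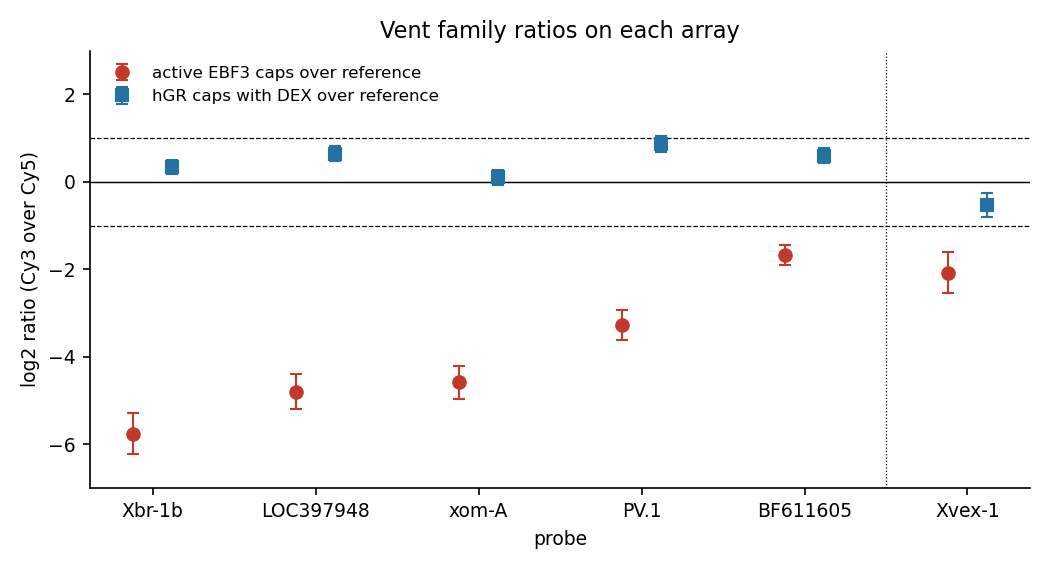
Log2 ratio of Cy3 over Cy5 for each Vent probe and for Xvex-1, in active EBF3 caps and in hGR caps, each over the reference; bars are the spot error of the software and dashed lines mark 2-fold. The active EBF3 ratios run between -5.76 and -1.68 over the family, and the hGR ratios between 0.10 and 0.86, with PV.1 and Xvex-1 drawn from active EBF3 signals not well above background.

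Because both ratios share the description of their reference, the Cy5 channels were set against each other to give the spread between the arrays. The labels do not say whether the reference was a single RNA preparation. Technical spread and differences between batches of caps therefore cannot be told apart here. Over the 11243 probes whose Cy5 signal was well above background on both arrays, the log2 difference, active EBF3 array minus hGR array, had a median of 0.24 and an SD of 0.17. The Vent probes lay between 0.04 (BF611605) and 0.20 (PV.1, with Xbr-1b close to it), all within 1.15-fold and not far from that median. Some probes were not so close, and both *myod* probes, for the muscle determination factor, were 2.63-fold (LOC397758) and 10.6-fold (MGC52596) brighter in Cy5 on the active EBF3 array.

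Subtracting the hGR log2 ratio set the DEX-treated samples against each other through the reference. All 5 members were at least 2-fold lower by this difference, where 3.26% of 21219 probes were, and since it contains the active EBF3 ratio it too is a description. The difference was -6.10 for Xbr-1b (spot error 0.50), -5.45 for LOC397948 (0.43), -4.69 for xom-A (0.42) and -2.28 for BF611605 (0.28). For PV.1 the signals as they are gave -4.12, which is not an exact size, because its Cy3 signal in active EBF3 caps was not well above background. Taken directly, the Cy3 signal in active EBF3 caps was 59.7-fold below that in hGR caps for Xbr-1b, 38.6-fold for LOC397948 and 4.70-fold for BF611605.

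**Figure D3:**
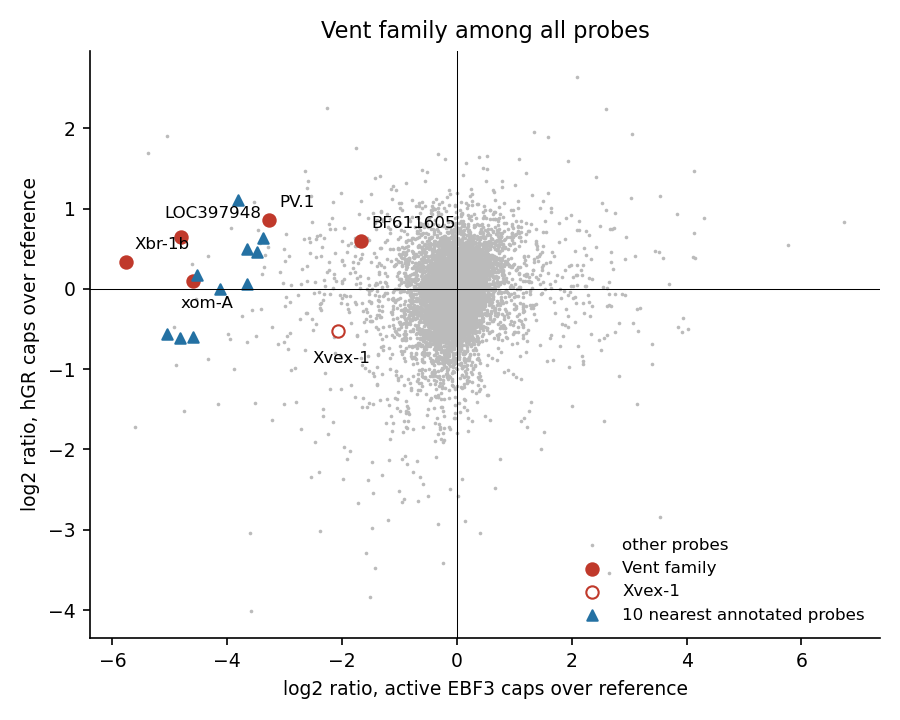
Each point is 1 probe that was well above background in Cy3 or Cy5 on each array, with its log2 ratio in active EBF3 caps on the horizontal axis and in hGR caps on the vertical axis, both over the reference. The 5 Vent probes lie left of zero and above it (xom-A by less than its spot error), from Xbr-1b at -5.76 and 0.34 to BF611605 at -1.68 and 0.60, and Xvex-1 lies left of zero and below it.

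One related gene had a probe outside the rule. Xvex-1 (ventx3.2.S), a more distant ventral homeobox gene, had 119 in active EBF3 caps, not well above background, and 324 in hGR caps, against 499 and 468 in the reference. In active EBF3 caps it was at least 2.42-fold below the reference. In hGR caps it was 1.44-fold lower (log2 -0.53, spot error 0.27).

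In the RefSeq annotation the Vent genes stand side by side. On chromosome 7L the order was *ventx3.2*, *ventx1.2*, *ventx2.2*, *ventx1.1* and *ventx2.1*, with 0 other genes between them, and chromosome 7S had the same order with 1 other gene between. Around the cluster, within 10 genes on either side, few genes had a matched probe. The nearest ones measured in both channels were LOC398328 (*blnk*, a B-cell signalling adaptor), 1.095-fold lower in active EBF3 caps, and LOC495374 (*gsto1*, a glutathione transferase), 1.11-fold higher. dntt-A (*dntt*) and MGC82327 were well above background in neither channel. At 10 genes from the cluster on 7S lies *hhex*, a homeobox gene of early endoderm and blood vessels. The probe hhex-A, which matches the L copy of that gene, was at least 20.8-fold higher with active EBF3 (log2 5.36 for the signals as they are). On the hGR array it was well above background in neither channel, so nothing is read from its log2 ratio of -0.18 (spot error 1.055) there.

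Other homeobox probes were counted where their description carries that word or a like one, which leaves out Xvex-1, dlx3-A-prov and Dlx5, given with the lists. Of 65 such usable probes, 3 (4.62%) were lower by at least 2-fold in active EBF3 caps and 20 (30.8%) higher, against 2.03% and 2.11% of all probes, with a median log2 ratio of 0.11, against -4.59 in the Vent family and -0.09 over all probes. The 3 lower ones were irx2-A (Iroquois 2, at least 9.21-fold), cdx4-prov (a caudal gene of posterior patterning, at least 4.95-fold) and LOC397976 (*irx1*, 3.68-fold). In hGR caps 2 of the 65 (3.08%) were at least 2-fold lower, where 4.08% of all probes were, and 0 higher, with a median of 0.05. Only 30 of the 65 were well above background in a channel of that array, among them 1 of the 2 lower probes.

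Other genes of the BMP pathway were taken from lists chosen by role. Over all 4 BMP lists, 43 of 44 probes were usable on the active EBF3 array. Of these, 13 were at least 2-fold lower and 4 higher, with a median of -0.50. The corresponding shares over all probes, here and for each list below, were those given above, 2.03% and 2.11%. In hGR caps 3 of the 43 usable probes were at least 2-fold lower and 5 higher, against 4.08% and 1.02% of all probes. Of these, 2 and 4 were well above background in at least 1 channel. Over all probes 328 of the 870 lower and 115 of the 217 higher ones were. The median of the 43 usable probes was 0.09.

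BMP ligands were partly lower. Of 6 ligand probes, 3 were lower by at least 2-fold in active EBF3 caps and 0 higher, with a median of -0.65. These probes stood for *bmp2*, *bmp7*, *admp* and *gdf6*, 4 of the 5 genes listed, and *bmp4* was not among them. Both probes for *bmp7*, a ligand that can pair with other BMPs, were lower, bmp7-prov by 5.39-fold and MGC68434 by 2.33-fold. In hGR caps bmp7-prov was 1.58-fold higher. MGC68434 had a log2 ratio of 0.03 there, smaller than its spot error of 0.16, so no direction is given. Before dye normalization both were below the reference in hGR caps, bmp7-prov at 124 against 140 and MGC68434 at 8094 against 13633. LOC398053 (*admp*, a BMP-like ligand made by the organizer) was lower in active EBF3 caps by at least 2.07-fold.

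The receptors and Smad proteins, which carry the signal from the cell surface to the nucleus, did not pass 2-fold. Of the 9 genes listed, 5 had a matched probe. Among the 7 usable probes 0 were lower and 0 higher by 2-fold, with a median of -0.07. The largest ratio measured in both channels was that of LOC397712 (*bmpr1a*, a type I receptor), with a log2 ratio of -0.91 (spot error 0.18) in active EBF3 caps and -0.29 in hGR caps.

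Among antagonists and feedback inhibitors, 4 of 17 probes were lower by at least 2-fold in active EBF3 caps and 2 higher. The lower ones were inhibitors that are themselves induced by BMP or expressed with it ventrally. The inhibitory Smads of the list did not pass 2-fold and are named here although no rule chose them. Smad6 was 1.59-fold higher and madh7 (*smad7*) 1.84-fold lower in active EBF3 caps. The probe szl (*sizzled*, a secreted inhibitor of chordin breakdown) had 458 in active EBF3 caps and 56579 in hGR caps, against 19051 and 17459 in the reference, 41.6-fold lower with active EBF3 and 3.24-fold higher in hGR caps. A second *sizzled* probe, LOC398164, was at least 21.8-fold lower and 3.73-fold higher. bambi-A (a decoy BMP receptor) was 10.3-fold lower and 1.55-fold higher, and TWSG1 (*twisted gastrulation*, which binds BMP and chordin) was 3.30-fold lower and 1.25-fold higher. After dye normalization these 4 probes thus had ratios below 1 on the active EBF3 array and above 1 on the hGR array. Before that step, the background-subtracted signals in hGR caps were 9828 for bambi-A and 411 for TWSG1, below 10958 and 594 in the reference. Both *sizzled* probes stayed above the reference there, at 3799 against 2086 for szl and 1051 against 511 for LOC398164. The hGR ratios above 1 of bambi-A and TWSG1 therefore rest on the dye normalization.

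The antagonists that were higher with active EBF3 were LOC398045 (*chordin*, the organizer's secreted BMP antagonist), 2.25-fold, and Cktsf1b1 (*gremlin*, another secreted antagonist), 2.42-fold. In hGR caps *chordin* was 3.06-fold lower, opposite to its ratio with active EBF3, and gremlin's log2 ratio was -0.07.

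Further BMP-responsive genes went both ways. Of 13 probes, 6 were lower by at least 2-fold in active EBF3 caps and 2 higher, with a median of -0.78. The lower ones were foxi1-prov (a forkhead factor of the ectoderm) at 48.8-fold, LOC398243 (*klf17*, neptune, a Krüppel-like factor of ventral and blood precursors) at 32.9-fold, XGATA-2 (a zinc finger factor of ventral ectoderm and blood) at 14.0-fold, dlx3-A-prov at 3.83-fold, Dlx5 at 3.13-fold (both distal-less homeobox factors of non-neural ectoderm) and idb4-prov (an Id inhibitor of bHLH factors) by at least 2.00-fold. XGATA-3 was 6.05-fold and Xhox3 (an even-skipped homeobox factor) 6.25-fold higher.

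In hGR caps these targets did not all follow the Vent probes. XGATA-2 was 2.16-fold, idb4-prov 1.80-fold and Dlx5 1.35-fold higher there, whereas foxi1-prov was 3.30-fold and LOC398243 1.47-fold lower. Before dye normalization Dlx5 was below the reference in hGR caps, at 3942 against 5151, so its ratio above 1 rests on that step. XGATA-3 was 4.72-fold higher in hGR caps, the same direction as with active EBF3. The dlx3-A-prov spot was non-uniform on the hGR array and gives no value.

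**Figure D4:**
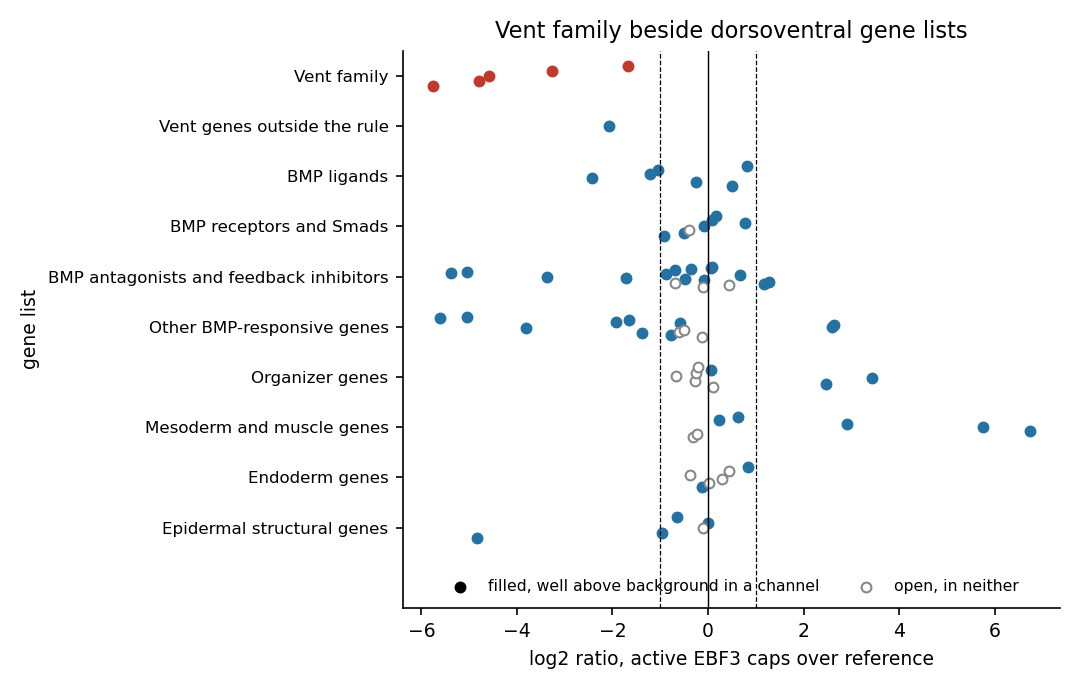
Log2 ratio in active EBF3 caps over the reference for each usable probe of the Vent family (red) and of the lists other than the early neural one (blue), 1 row per list; open circles are probes well above background in neither channel, and dashed lines mark 2-fold. All 5 Vent probes lie left of the lower line, 0 of 7 receptor and Smad probes lie outside the lines, and the BMP antagonists run between -5.38 and 1.27.

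Organizer genes, which Vent proteins keep off on the ventral side, were mostly too dim to measure. Of 8 organizer probes 5 were well above background in neither channel of the active EBF3 array, among them LOC397748 (*goosecoid*), which is named here although no rule chose it. LOC397703 (*not*, a homeobox gene of the notochord) was 10.9-fold higher in active EBF3 caps and 1.38-fold higher in hGR caps. Before dye normalization its signal in hGR caps was 443, below 579 in the reference. Xlim-1 (*lhx1*) was at least 4.14-fold higher with active EBF3. None of the 8 was at least 2-fold lower there.

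Some markers of other tissues differed on the same array. Of 7 mesoderm and muscle probes, 3 were at least 2-fold higher, both *myod* probes (LOC397758, 107-fold, and MGC52596, 54.4-fold) and XMyf-5 (*myf5*, 7.49-fold). The summed signal of the list was 231000 in active EBF3 caps and 1736 in hGR caps, against 5046 and 1315 in the reference on these arrays. Most of the sum in active EBF3 caps came from the *myod* probes, at 68880 (LOC397758) and 157246 (MGC52596), so it does not speak for the list as a whole. Both *brachyury* probes, the defining marker of early mesoderm, were well above background in neither channel. Sox-2, an early neural factor, was higher by 6.63-fold in active EBF3 caps and by 1.69-fold in hGR caps. Before dye normalization its signal in hGR caps was 765, below 821 in the reference. The early neural list as a whole did not share the rise of Sox-2 with active EBF3. Of its 12 usable probes on the active EBF3 array, 6 were above the reference and 6 below, with a median log2 ratio of -0.04. The part of these other tissue markers in the Vent values was not tested.

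Endoderm and epidermis were also examined. Of 6 endoderm probes 0 passed 2-fold, but only 2 were well above background in a channel of the active EBF3 array. The rest of that list was too dim to measure. The largest ratio measured in both channels was that of Mix.1 (a homeobox factor of mesendoderm), with a log2 ratio of 0.83 in active EBF3 caps and -0.49 in hGR caps. Of 5 epidermal structural probes 1 was at least 2-fold lower, krt1-2-prov, at 28.4-fold. In all, 4 of the 5 were below the reference, with a median log2 ratio of -0.65. The list left out MGC68905, an epidermal type I cytokeratin, and Xepsin, an epidermal serine protease. These were 23.0-fold and 11.2-fold lower in active EBF3 caps. Both are named because they were among the 10 probes nearest to the family. That choice used these same ratios, so nothing about epidermal genes is read from them.

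The pattern of the family over both arrays was set against 2923 annotated probes well above background in the reference. The measure was the Euclidean distance, over 2 log2 ratios, from the family's medians of -4.59 with active EBF3 and 0.60 in hGR caps, and the members themselves lay 0.22 to 2.91 away. Nearest was MGC68905, a type I cytokeratin of gastrula epidermis (distance 0.43), with 3248 in active EBF3 caps and 74385 in hGR caps, against 74606 and 65726 in the reference. MGC53484 (similar to a tripartite motif protein, distance 0.76), XGATA-2 (0.93), klf2-prov (a Krüppel-like factor, 1.09), Xepsin (an epidermal serine protease, 1.12), L29057 (a cadherin, 1.197), bambi-A (1.22), krt1-2-prov (1.23) and LOC398243 (1.25) followed. By its signals as they are, irx2-A was also among the 10 nearest, but its Cy3 signal in active EBF3 caps was not well above background, so it has no exact distance or place. With 1 array per comparison this likeness rests on 2 values a probe.

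**Figure D5:**
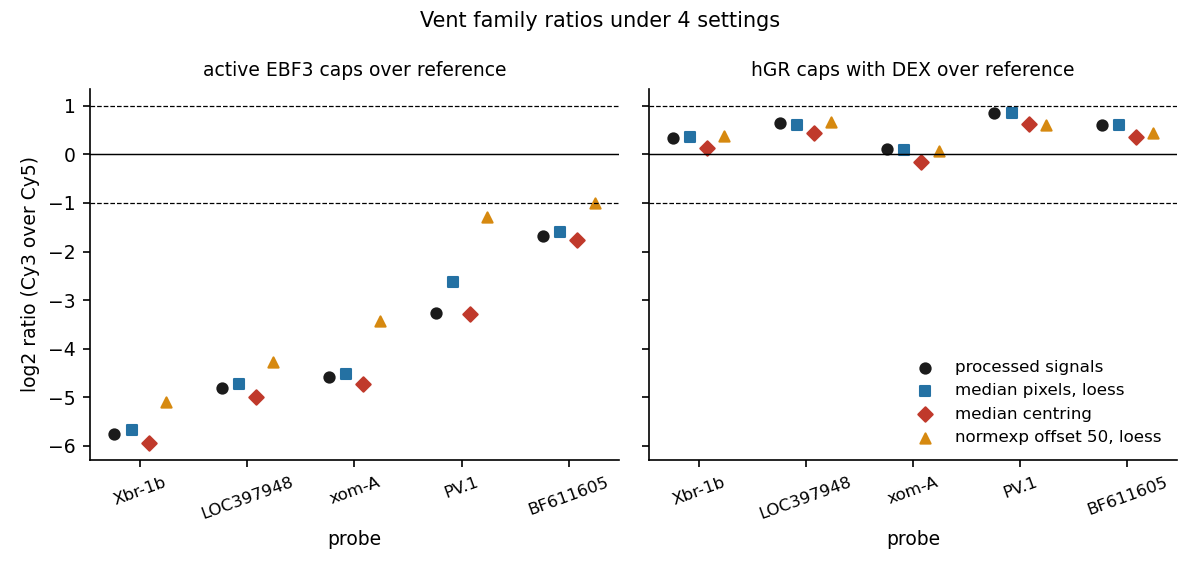
Log2 ratio of each Vent probe over the reference in active EBF3 caps (left) and hGR caps (right) under 4 ways of making the ratio from the same spots, namely processed signals, median pixel signals with loess, median centring, and normexp correction (offset 50) followed by loess; dashed lines mark 2-fold. Every active EBF3 value lies below the lower line, the closest being BF611605 at -1.01 with normexp, and xom-A alone falls below zero in hGR caps, at -0.15 with median centring.

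How the ratio was made changed the size of the decrease more than its presence. With normexp and its offset, which pulls dim signals together, PV.1 was at -1.29 and BF611605 at -1.01 on the active EBF3 array, against -3.27 and -1.68 from the processed signals. For Xbr-1b the range over all settings tried ran between -5.96 and -5.10. Before any dye normalization, the background-subtracted signals of Xbr-1b were 82.8 in active EBF3 caps and 5166 in the reference, a 62.4-fold decrease. On the hGR array, where the median log2 ratio of all probes before dye normalization was -0.60, the same step gave 4932 in hGR caps and 6820 in the reference for Xbr-1b. There 4 of 5 members were below the reference (log2 -0.47 for Xbr-1b, -0.17 for LOC397948, -0.76 for xom-A and -0.25 for BF611605) and PV.1 was at 0.02, so the hGR ratios above 1 rest on the dye normalization.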

How the data were processed

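The deposited spot intensity values were those of 2 two-colour Agilent arrays. Per the file headers, Feature Extraction 8.1.1.1 read the scans at 10 µm per pixel. The methods name a different version and pixel size. The processed intensity deposited by the authors had its background subtracted and its dyes balanced by LOWESS. The deposited log10 ratio puts Cy5 over Cy3. In the authors' table for the series, 100% of the values equal that log10 ratio with its sign turned (tolerance 1e-05). The direction follows the dyes per the labels.

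Ratios here are log2 of processed Cy3 over Cy5, from the deposited intensity values (Python 3.11.15). After the methods, control and non-uniform spots were removed and 2-fold was the threshold. Where 1 channel was not well above background, a bound is given from Aquantile-normalized signals (limma 3.58.1), with the dim channel at the higher of its own value and the lowest signal well above background. Such a bound holds for the processed signals only, and other settings can give a smaller change, as for PV.1. Without dye swaps it is open to dye bias. Steps were tested on simulated data, with known ratios put into bright spots only. Recovery from the processed signals was fixed by how these were simulated, and the bounds for dim channels were not tested. The family members, the gene lists and the rules were chosen with earlier results of these data known. From each list, probes past 2-fold with active EBF3 and well above background in at least 1 channel are named, otherwise the largest ratio measured in both channels, and 10 nearest probes. A probe that this rule names is not reported here. Of the list matches, 7 were dropped and 3 added by annotation. RefSeq names matched 3640 of 21495 probes.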

Additional observations from a re-analysis of the deposited data

Results flagged for a closer look

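All 5 Vent probes had ratios of opposite sign on the 2 arrays, lower than the reference in active EBF3 caps and higher in hGR caps. The difference of the log2 ratios, active EBF3 minus hGR, was -6.10 for Xbr-1b, -5.45 for LOC397948, -4.69 for xom-A, -4.12 for PV.1 and -2.28 for BF611605. The value of PV.1 uses an active EBF3 signal not well above background and is not an exact size. With 1 array each this difference was not tested, and for xom-A the hGR ratio (0.10) was smaller than its spot error (0.16) and turned to -0.15 with median centring. Before dye normalization 4 of 5 members were below the reference on the hGR array too, where the median of all probes was -0.60.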

How the results depend on the processing

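No paired analysis was possible because a single array per group allows no test. Likewise no replicate could be left out. The comparison of Cy3 channels after Aquantile, the 1.5-fold threshold and the ratio with no dye normalization were added after seeing the data. Of 95 values of single members under the alternatives, 61 stayed within 1 SD of the Cy5 differences, 34 moved further and 0 called values changed sign. For every member the deposited log ratio and the series table repeat the main ratio. Their values could not move and are counted among the 61, so that count says little about stability. With normexp the family median was -3.42 on the active EBF3 array and -3.50 for the difference between arrays. With median centring it was 0.35 on the hGR array, where xom-A was at -0.15. With no dye normalization it was -0.25 on the hGR array, below the reference for 4 of 5 members, and -3.996 for the difference. The listed probes lower with active EBF3 numbered 16 at 2-fold and 9 at 5-fold.

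All probes at least 2-fold lower and higher with active EBF3 numbered 432 and 450. They were 187 and 193 with normexp, 882 and 1889 with median centring (68.2% higher, against 51.0%), 258 and 268 well above background in both channels, and 109 and 118 at 5-fold. On the hGR array, 870 were lower and 217 higher (19.96% higher). These became 79 and 22 with normexp, 673 and 2826 with median centring (80.8%), 363 and 217 with the log ratio as deposited or as in the series table (37.4%), 150 and 90 well above background in both channels (37.5%), 328 and 115 in at least 1 channel, 33 and 1 at 5-fold (2.94%), and 2226 and 1178 at 1.5-fold (34.6%). The cause was not tested. Signal over background limits PV.1 and Xvex-1 to bounds with active EBF3.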
